A study of Homo sapiens with 15 samples.

Results

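Hypoxic A549 cultures given BB2-125 (3 arrays) were set against hypoxic A549 cultures given BB2-282 (3 arrays). The arrays were chosen by their titles and are 6 of the 15 in the series, described here across all genes measured. A549 is a human lung adenocarcinoma cell line of epithelial origin. Cells received 10 µM of BB2-125 or 10 µM of BB2-282 with 0.1% DMSO, and after 6 h were placed in a gas-pack pouch, which removes oxygen, for 42 h. Hypoxic vehicle cultures (3) went through the same steps with 0.1% DMSO alone, and normoxic vehicle cultures (3) received 0.1% DMSO and stayed in normal oxygen. Both compounds are known here by code names, and the submitters' design text calls them transcriptional inhibitors. No normoxic culture received either compound, so actions on the response to low oxygen and actions on transcription at large cannot be told apart. The comparison asks how hypoxic cells given 2 compounds tested for the same purpose, at the same dose and times, differed in their RNA levels.

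Cells sense oxygen through hypoxia-inducible factor (HIF), a pair of an alpha subunit, encoded by HIF1A or EPAS1, and the beta subunit encoded by ARNT. In normal oxygen the prolyl hydroxylases EGLN1 to EGLN3 mark the alpha subunit for destruction through the VHL ubiquitin ligase. In low oxygen it accumulates, pairs with ARNT, recruits the coactivators EP300 and CREBBP, and turns on genes of glucose uptake, glycolysis, blood vessel growth and collagen crosslinking. CITED2 competes with HIF for the same domain of these coactivators.

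Each culture was read on its own Affymetrix array, with probes along the whole transcript, and deposited intensities were taken to log2. Median intensity ran from 78.36 to 80.74 over the 6 arrays. With 3 arrays in a group, precision rests on that number. Arrays correlated at 0.9885 to 0.9946 within BB2-125, at 0.9932 to 0.995 within BB2-282 and at 0.9419 to 0.9544 between them, and 0 pairs of arrays were identical. All 10 of the 10 epithelial and A549 markers listed lay above the dim level (the 25th percentile of the array) with both compounds, whereas DCN, LUM, PDGFRA, FAP and POSTN of fibroblasts, PTPRC, LYZ and MS4A1 of leukocytes and ERG of endothelium lay at or below it with both. The other listed markers on the array lay above it with both, 5 of 10 for fibroblasts, 8 of 11 for leukocytes and 10 of 11 for endothelium. CD68, of leukocytes, lay at 11.05 with BB2-125 and 11.39 with BB2-282. Signal above the dim level is therefore no sign of a cell type by itself. Arrays of BB2-162, a further compound, entered the filter on dim genes, the estimate of spread and the centring of genes over all arrays, and 1 of them (replicate 1) lay 0.221 from its group (root mean square, log2). The labels name the cultures biological replicates without saying how they were kept separate. All p-values therefore refer to the spread seen among these arrays, some of which may be technical.

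Hypoxic cells given BB2-125 differed from those given BB2-282 in 36.3% of the genes tested, in both directions to a similar extent. Of 16005 genes tested with limma, 5813 (36.3%) differed at an adjusted p under 0.05, and these are the genes called below. With BB2-125, 2992 genes (18.7%) were higher and 2821 (17.6%) were lower than with BB2-282. Counts within the gene lists below read against these shares. At least 2-fold differences were found in 1039 genes (6.49%), 487 of them higher (3.04%) and 552 lower (3.45%). The groups did not overlap in 51.2% of genes. For 8725 genes (54.5% of those tested) the 95% interval of the difference lay within 0.5 either side of 0 on the log2 scale. Against the hypoxic vehicle, BB2-125 changed 4539 genes (28.4%; 13.3% higher and 15% lower) and BB2-282 changed 2176 genes (13.6%; 5.65% higher and 7.94% lower), with at least 2-fold changes in 3.81% of genes for BB2-125 and 0.981% for BB2-282. These last comparisons share the 3 vehicle arrays, so their values are given only side by side. Counts of list members against the vehicle read against the shares of all genes for that compound. In the comparison of the compounds with each other the vehicle arrays enter the estimate of spread, and so its errors and p-values, but not the difference. Each array averages a whole culture, so fewer cells expressing a gene and less RNA per cell cannot be told apart.

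Small noncoding RNA genes aside, the 12 largest rises held fibrinogen chains, metabolic enzymes, histones and a chaperone. These 12, like the 12 falls below, were chosen among called genes whose groups do not overlap, so their lack of overlap is no result. FGB, which encodes the beta chain of the clotting protein fibrinogen, lay at 9.02, 8.48 and 8.66 (log2 intensity) in the BB2-125 arrays, against 5.05, 5.29 and 5.07 in the BB2-282 arrays. The groups were far apart, a difference of 3.58 ± 0.17 on the log2 scale (± SE, 3 arrays in each group; adjusted p = 6.68e-11), which is 12-fold. Relative to the hypoxic vehicle (log2 difference of means) FGB stood at 0.48 with BB2-125 and -3.10 with BB2-282. FGG, the gamma chain, differed by 2.64 ± 0.21, and because it was not above the dim level with BB2-282 it is better given as at least 3.09-fold higher. FGA, the alpha chain, differed by 1.33 ± 0.12.

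PDK4, a kinase that shuts pyruvate out of the tricarboxylic acid cycle, lay at 8.91, 8.89 and 8.85 in the BB2-125 arrays and at 6.23, 6.04 and 5.90 in the BB2-282 arrays, with no overlap and a difference of 2.83 ± 0.15 (adjusted p = 1.77e-10). IDH1, the cytosolic isocitrate dehydrogenase that makes NADPH, lay at 10.24, 10.47 and 10.28 with BB2-125 and at 7.96, 7.57 and 8.01 with BB2-282. That difference of 2.49 ± 0.14 (adjusted p = 4.76e-10) stood beside a change of 2.42 with BB2-125 and of -0.07 with BB2-282 against the hypoxic vehicle. EREG, a ligand of the EGF receptor, lay at 10.21, 10.76 and 10.38 with BB2-125 and at 8.03, 8.21 and 8.13 with BB2-282, a difference of 2.32 ± 0.20. AGR2, a protein disulphide isomerase of secretory epithelia, was higher by 2.52 ± 0.14, the calcium-binding protein gene S100P by 2.52 ± 0.15 and the tetraspan membrane protein gene TM4SF20 by 2.73 ± 0.22. The other 4 of the 12 were the histone genes H3C12, H2BC3 and H2AC4 and the chaperone gene HSPH1, described below. Adjusted p was at most 5.95e-08 for each of the 12.

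The 12 largest falls are given next. LOX, the lysyl oxidase that crosslinks collagen and a known HIF target, lay at 5.98, 5.73 and 5.99 in the BB2-125 arrays, against 9.36, 9.33 and 9.40 in the BB2-282 arrays. That is 11-fold, a difference of -3.46 ± 0.16 (adjusted p = 5.10e-11), and the compounds moved it in opposite directions against the hypoxic vehicle, by -1.70 with BB2-125 and by 1.76 with BB2-282. PMEPA1, a feedback inhibitor of TGF-beta signalling, lay at 8.22, 8.24 and 8.13 with BB2-125 and at 11.31, 11.44 and 11.44 with BB2-282, a difference of -3.20 ± 0.11 (adjusted p = 2.33e-12). TGFBR1, the type I TGF-beta receptor, differed by -2.51 ± 0.11.

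EGFR, the EGF receptor, lay at 7.27, 7.86 and 7.41 with BB2-125 and at 9.98, 10.11 and 10.53 with BB2-282, with no overlap. Its difference was -2.69 ± 0.17 (adjusted p = 2.26e-09). PDGFB, a platelet-derived growth factor chain, differed by -2.75 ± 0.10, F3, the tissue factor that starts clotting, by -2.68 ± 0.13, and JAG1, a Notch ligand, by -2.57 ± 0.11. The adhesion genes ITGA6 (integrin alpha 6) and TNS1 (tensin 1) differed by -2.46 ± 0.16 and -2.59 ± 0.12. HOXD10, a homeobox gene, differed by -2.88 ± 0.13, RASD2, a small GTPase gene, by -2.47 ± 0.16, and the mucin gene MUC12 by -3.04 ± 0.24. MUC12 has 3 probe sets, and the other 2 gave -2.37 and -0.43 (log2). PDGFB and HOXD10, like LOX, PMEPA1, MUC12, TGFBR1, JAG1, RASD2 and F3, were lower than the hypoxic vehicle with BB2-125 and higher than it with BB2-282 (each called). EGFR, TNS1 and ITGA6 were called against the vehicle with BB2-125 alone, their values being -2.59, -2.36 and -2.15 with BB2-125 and 0.10, 0.24 and 0.30 with BB2-282.

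**Figure D1:**
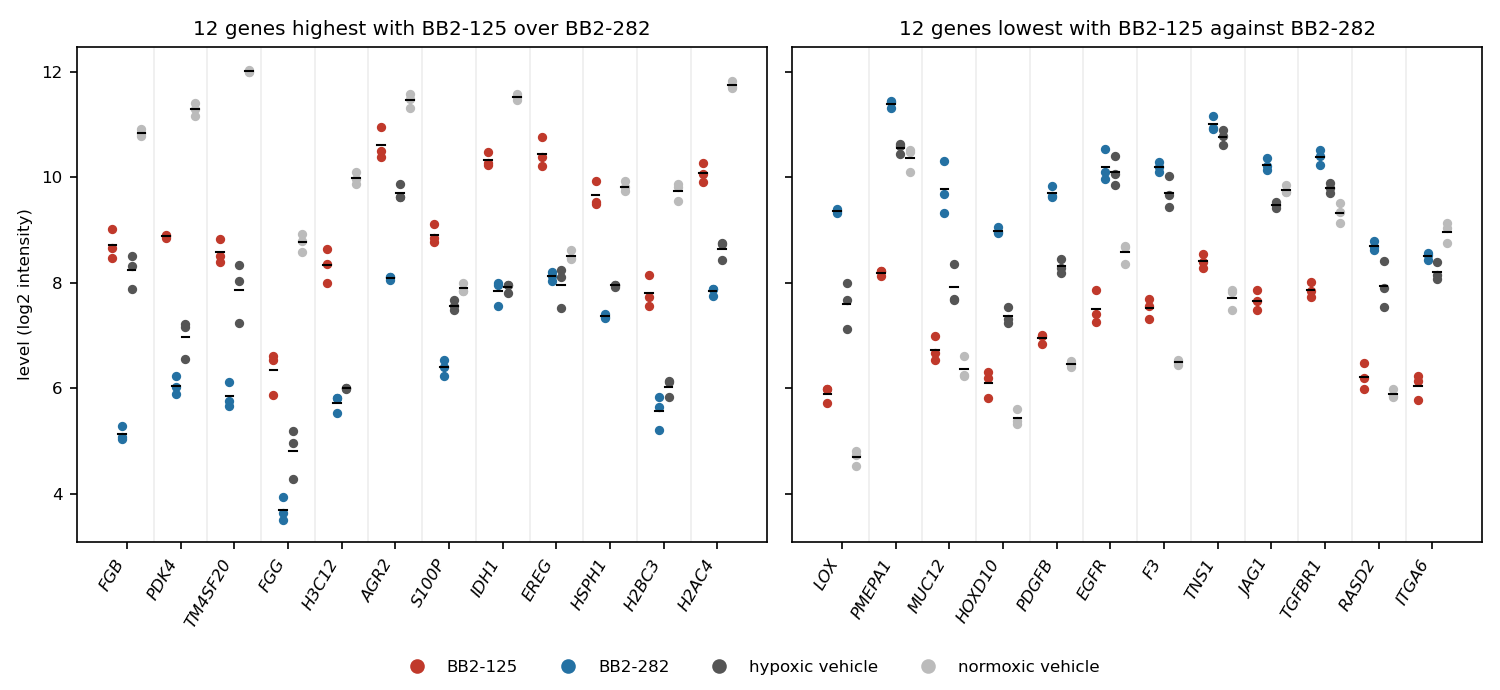
Log2 intensity (vertical axis) of the 12 genes with the largest rises (left) and the 12 with the largest falls (right) of BB2-125 against BB2-282, 1 point per array and a bar at each group mean, with the hypoxic and normoxic vehicle arrays after them. In every gene the 3 BB2-125 arrays lie apart from the 3 BB2-282 arrays, as the rule that chose them requires; LOX with BB2-282 reached 9.33 to 9.40, above all 3 hypoxic vehicle arrays.

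Among known HIF targets, falls outnumbered rises with BB2-125, and 6 of the 19 falls were at least 2-fold. Of 43 targets in signalling, survival and pH control that were tested, 19 were lower (44.2%, against 17.6% of all genes) and 6 were higher (14%, against 18.7%; 3 under quantile normalization), with a median difference of -0.23 against 0.00495 over all genes. Against the hypoxic vehicle, 20 of the 43 were lower and 4 higher with BB2-125 (15% and 13.3% of all genes), and 4 were lower and 2 higher with BB2-282 (7.94% and 5.65% of all genes). VEGFA, the main growth factor of blood vessels, lay at 10.44, 10.59 and 10.59 in the BB2-125 arrays and at 11.52, 11.57 and 11.55 in the BB2-282 arrays. The groups did not overlap and the difference was -1.01 ± 0.11 (adjusted p = 9.26e-07), that is 2.01-fold. BB2-125 left VEGFA at -0.87 from the hypoxic vehicle (adjusted p = 8.04e-06), and BB2-282 at 0.13 (adjusted p = 0.534). Hypoxia itself had raised VEGFA by 3.66, so its level with BB2-125 was still far above the normoxic mean of 7.76.

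Among the other targets, TGFA, a ligand of the EGF receptor, differed by -1.78 ± 0.11, VLDLR, a lipoprotein receptor, by -1.17 ± 0.12, INSIG2, a brake on sterol synthesis, by -1.08 ± 0.11 and CXCR4, a chemokine receptor, by -1.16 ± 0.13 (adjusted p at most 1.84e-06). CXCR4 lay at 8.06, 8.16 and 7.64 with BB2-125 and at 9.16, 9.08 and 9.10 with BB2-282. BNIP3, a HIF target that promotes the removal of mitochondria, went the other way, with 12.39, 12.37 and 12.41 in the BB2-125 arrays, 11.87, 11.76 and 11.86 in the BB2-282 arrays and a difference of 0.56 ± 0.10 (adjusted p = 0.000222).

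Of 24 genes of glycolysis and glucose uptake, 8 were lower (33.3%, against 17.6% of all genes) and 3 were higher (12.5%, against 18.7%). The median difference was -0.18. Under quantile normalization 14 were called lower, with a median of -0.34. The largest fall was that of PYGL, liver glycogen phosphorylase, at 9.83, 9.83 and 9.83 with BB2-125 and 11.78, 11.77 and 11.81 with BB2-282, a difference of -1.96 ± 0.11 (adjusted p = 5.92e-10). GYS1, glycogen synthase, differed by -1.13 ± 0.14 and ENO2, an enolase, by -0.70 ± 0.11, whereas the pyruvate dehydrogenase kinase gene PDK3 was higher by 0.71 ± 0.11. SLC2A1, the glucose transporter GLUT1, lay at 12.30, 12.51 and 12.45 with BB2-125 and at 12.88, 12.80 and 12.98 with BB2-282. That was a small fall without overlap, -0.47 ± 0.11 (adjusted p = 0.00189), beside -0.52 with BB2-125 and -0.05 with BB2-282 against the hypoxic vehicle.

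The HIF machinery itself differed in its alpha subunits and coactivators. HIF1A lay at 10.18, 10.38 and 10.21 in the BB2-125 arrays and at 9.54, 9.50 and 9.63 in the BB2-282 arrays, 0.70 ± 0.15 higher (adjusted p = 0.00122), while EPAS1 lay at 11.09, 11.41 and 11.23 with BB2-125 and at 12.20, 12.19 and 12.31 with BB2-282, a difference of -0.99 ± 0.12 (adjusted p = 3.38e-06). The alpha subunit genes thus moved in opposite directions. ARNT differed by -0.32 ± 0.11 (adjusted p = 0.0256), a call that was lost when BB2-125 replicate 1 or 3 or BB2-282 replicate 2 or 3 was left out (adjusted p 0.0578 to 0.0821). EP300 lay at 7.48, 7.97 and 7.61 with BB2-125 and at 8.83, 9.0 and 9.12 with BB2-282, a difference of -1.30 ± 0.19 (adjusted p = 2.10e-05), and CREBBP, its close relative, differed by -1.41 ± 0.17 (adjusted p = 2.48e-06). Both coactivator genes were called lower than the hypoxic vehicle with BB2-125 and were not called with BB2-282, at 0.33 and 0.27.

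CITED2 was not called. Its difference was -0.13 ± 0.11 (adjusted p = 0.415), with a 95% interval from -0.37 to 0.10. EGLN3, the hydroxylase gene that HIF itself induces, lay at 8.11, 8.38 and 8.45 with BB2-125 and at 9.36, 9.29 and 9.41 with BB2-282, a difference of -1.04 ± 0.12 (adjusted p = 2.0e-06). Here both compounds were below the hypoxic vehicle, at -2.15 with BB2-125 and -1.11 with BB2-282, so they differed in degree and not in direction. ELOC, a subunit of the VHL ligase, was higher by 0.85 ± 0.11. Over the 20 pathway components tested, 4 were higher and 7 lower (20% and 35.0%, against 18.7% and 17.6% of all genes), with a median of -0.21.

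The promoter of LOX is shown because LOX had the largest fall outside the small noncoding RNA genes and is a HIF target. The 300 bases run from 250 before to 50 after its RefSeq start (GRCh38.p14, chr5:122078210-122078509, minus strand), and capitals mark the core of the hypoxia response element, ACGTG, on either strand.
LOX promoter: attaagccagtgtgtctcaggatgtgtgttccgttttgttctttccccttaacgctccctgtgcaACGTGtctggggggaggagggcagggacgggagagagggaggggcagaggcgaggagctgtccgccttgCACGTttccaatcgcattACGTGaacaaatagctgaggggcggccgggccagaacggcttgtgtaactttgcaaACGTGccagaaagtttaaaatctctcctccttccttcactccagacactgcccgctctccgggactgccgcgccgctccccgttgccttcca
The core was found 4 times, first bases at -185, -116, -98 and -42 from the start. It was present in 21.6% of all promoters in the table, in 25.1% of the tested genes with a promoter there and in 19 of 35 HIF targets (54.3%). The same window of EGLN3, which HIF also induces, held 0. A match is a run of letters and does not show that HIF binds there, and 0 matches say nothing of elements elsewhere.

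Genes that hypoxia had raised were mostly lower with BB2-125 where they differed, and genes that it had lowered were mostly higher. Hypoxia changed 9207 genes in the vehicle arrays (57.5%; 28.2% higher and 29.4% lower), and those arrays enter the spread behind the comparison of compounds but not its differences. Of the 835 genes that hypoxia raised at least 2-fold, 435 (52.1%) were lower with BB2-125 and 120 (14.4%) were higher, and the median difference was -0.37. Among the 1897 genes that hypoxia lowered at least 2-fold, 804 (42.4%) were higher and 184 (9.7%) lower, with a median of 0.24. In the 6798 genes not called in hypoxia, 11.9% were higher and 12.8% lower. The median change against the hypoxic vehicle over the genes raised at least 2-fold was -0.37 with BB2-125 and 0.01 with BB2-282. Over the genes lowered at least 2-fold it was 0.18 with BB2-125 and -0.07 with BB2-282. Those medians share the hypoxic vehicle arrays with the choice of genes, and are given as a description.

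**Figure D2:**
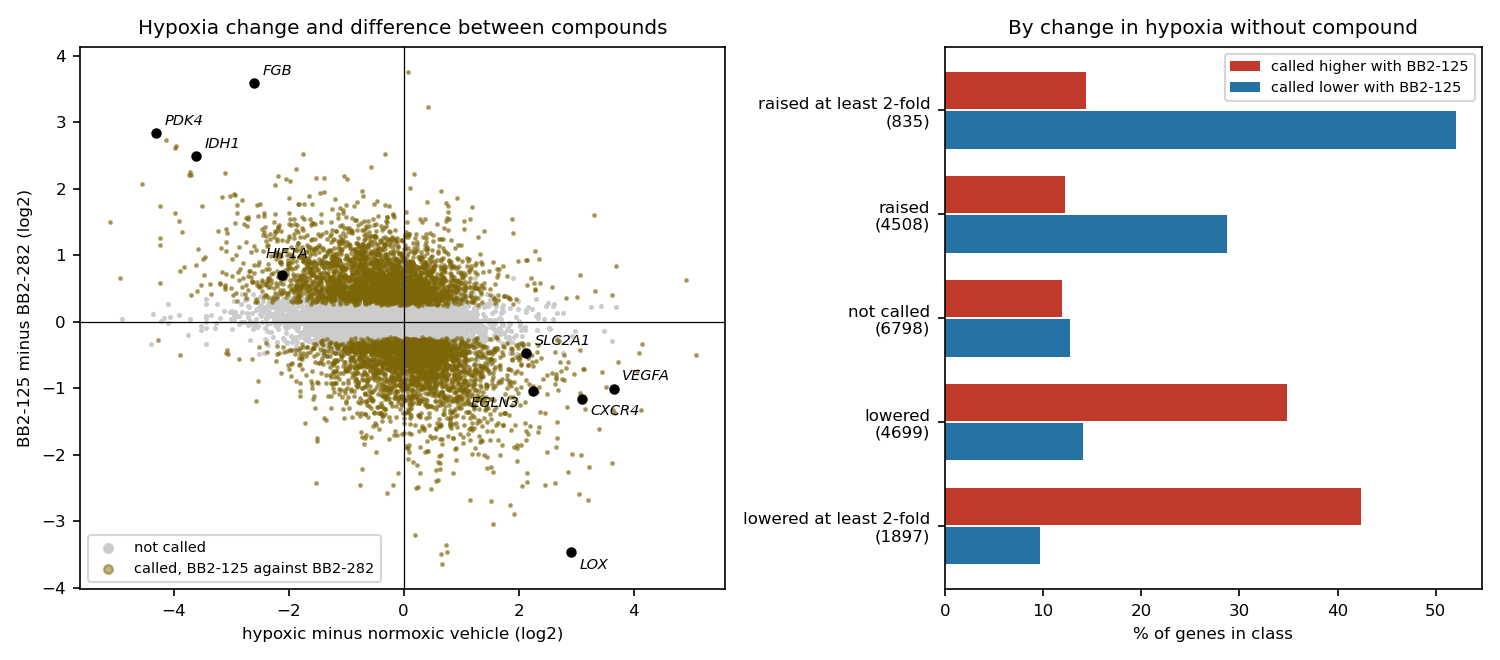
Left, the log2 change from normoxic to hypoxic vehicle (horizontal axis) against the log2 difference of BB2-125 minus BB2-282 (vertical axis), 1 point per gene, with 9 genes labelled. Right, the percent of genes called higher or lower with BB2-125 in each class of hypoxia response (number of genes in brackets): 52.1% of genes raised at least 2-fold were lower, and 42.4% of genes lowered at least 2-fold were higher.

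Genes of the extracellular matrix and of the receptors that hold cells to it were mostly lower. Of 18 integrins and laminins, 13 were lower (72.2%) and 1 was higher, with a median difference of -0.98. ITGA6, which pairs with ITGB4 in the hemidesmosome, lay at 5.79, 6.14 and 6.23 with BB2-125 and at 8.52, 8.44 and 8.57 with BB2-282, and its partner ITGB4 lay at 9.73, 9.91 and 9.93 with BB2-125 and at 11.60, 11.54 and 11.79 with BB2-282. Neither gene's groups overlapped. The difference was -1.78 ± 0.14 for ITGB4, -2.26 ± 0.16 for the collagen receptor subunit gene ITGA2 and -1.78 ± 0.17 for the fibronectin receptor subunit gene ITGA5 (adjusted p at most 2.11e-07).

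In the list of collagen modification and matrix, 11 of 19 genes were lower (57.9%) and 1 was higher. LOXL2, another lysyl oxidase, differed by -1.33 ± 0.11, PLOD2, which hydroxylates collagen lysines, by -1.31 ± 0.12 and COL5A1, a fibrillar collagen chain, by -1.26 ± 0.12. LOXL2 and COL5A1 were below the hypoxic vehicle with BB2-125 (-0.88 and -0.65, called) and above it with BB2-282 (0.45 and 0.61, called). PLOD2 was -1.43 with BB2-125 and -0.12 with BB2-282.

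TGF-beta signals through SMAD proteins and turns on matrix genes as well as its own inhibitors. Of 21 genes of the TGF-beta and SMAD response, 15 were lower (71.4%) and 4 were higher (19.0%), with a median of -0.57. THBS1, thrombospondin 1, which activates latent TGF-beta, lay at 7.19, 7.33 and 7.28 with BB2-125 and at 9.52, 9.78 and 9.78 with BB2-282, a difference of -2.42 ± 0.14 (adjusted p = 4.76e-10). The rises included ID2, an inhibitor of basic helix-loop-helix factors, which lay at 8.76, 9.05 and 8.92 with BB2-125 and at 6.94, 6.61 and 6.73 with BB2-282, a difference of 2.15 ± 0.16 (adjusted p = 1.07e-08). ID genes are best known as targets of the BMP branch of the family. Relative to the hypoxic vehicle, 13 of the 21 were lower and 3 higher with BB2-125, while 2 were lower and 6 higher with BB2-282.

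Mesenchymal genes were mostly lower as well, 12 of 15 (80%) and 1 higher. TAGLN, an actin-binding protein of smooth muscle, lay at 7.61, 7.62 and 7.45 with BB2-125 and at 8.72, 8.96 and 9.05 with BB2-282, and that difference of -1.35 ± 0.10 came with -0.06 for BB2-125 (adjusted p = 0.732) and 1.29 for BB2-282 (adjusted p = 4.17e-07) against the vehicle. CDH2, N-cadherin, with a difference of -1.44 ± 0.14, showed the other pattern, at -1.19 with BB2-125 and 0.25 with BB2-282. ZEB2, a repressor of epithelial genes, differed by -1.13 ± 0.12, and ACTA2, smooth muscle actin, by -0.95 ± 0.11. The other ZEB2 probe set, at a dim mean level of 2.90 (log2), gave -0.08. Of 20 epithelial junction and keratin genes 9 were lower (45.0%) and 3 higher (15%), with a median of only -0.02. The 4 of lowest p were desmosome and tight junction genes. DSC2 differed by -1.44 ± 0.17, DSP by -1.36 ± 0.19 and PKP2 by -0.86 ± 0.12, all 3 of the desmosome, and TJP1 of the tight junction by -1.26 ± 0.17. Keratin genes KRT8 and KRT18 had higher means with BB2-125 (13.09 and 12.57) than with BB2-282 (12.38 and 12.05). The mean of CDH1, E-cadherin, was 7.80 with BB2-125 and 7.82 with BB2-282. Of the 10 epithelial and A549 markers, 7 were called higher and 0 lower, so epithelial genes did not fall as a whole.

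**Figure D3:**
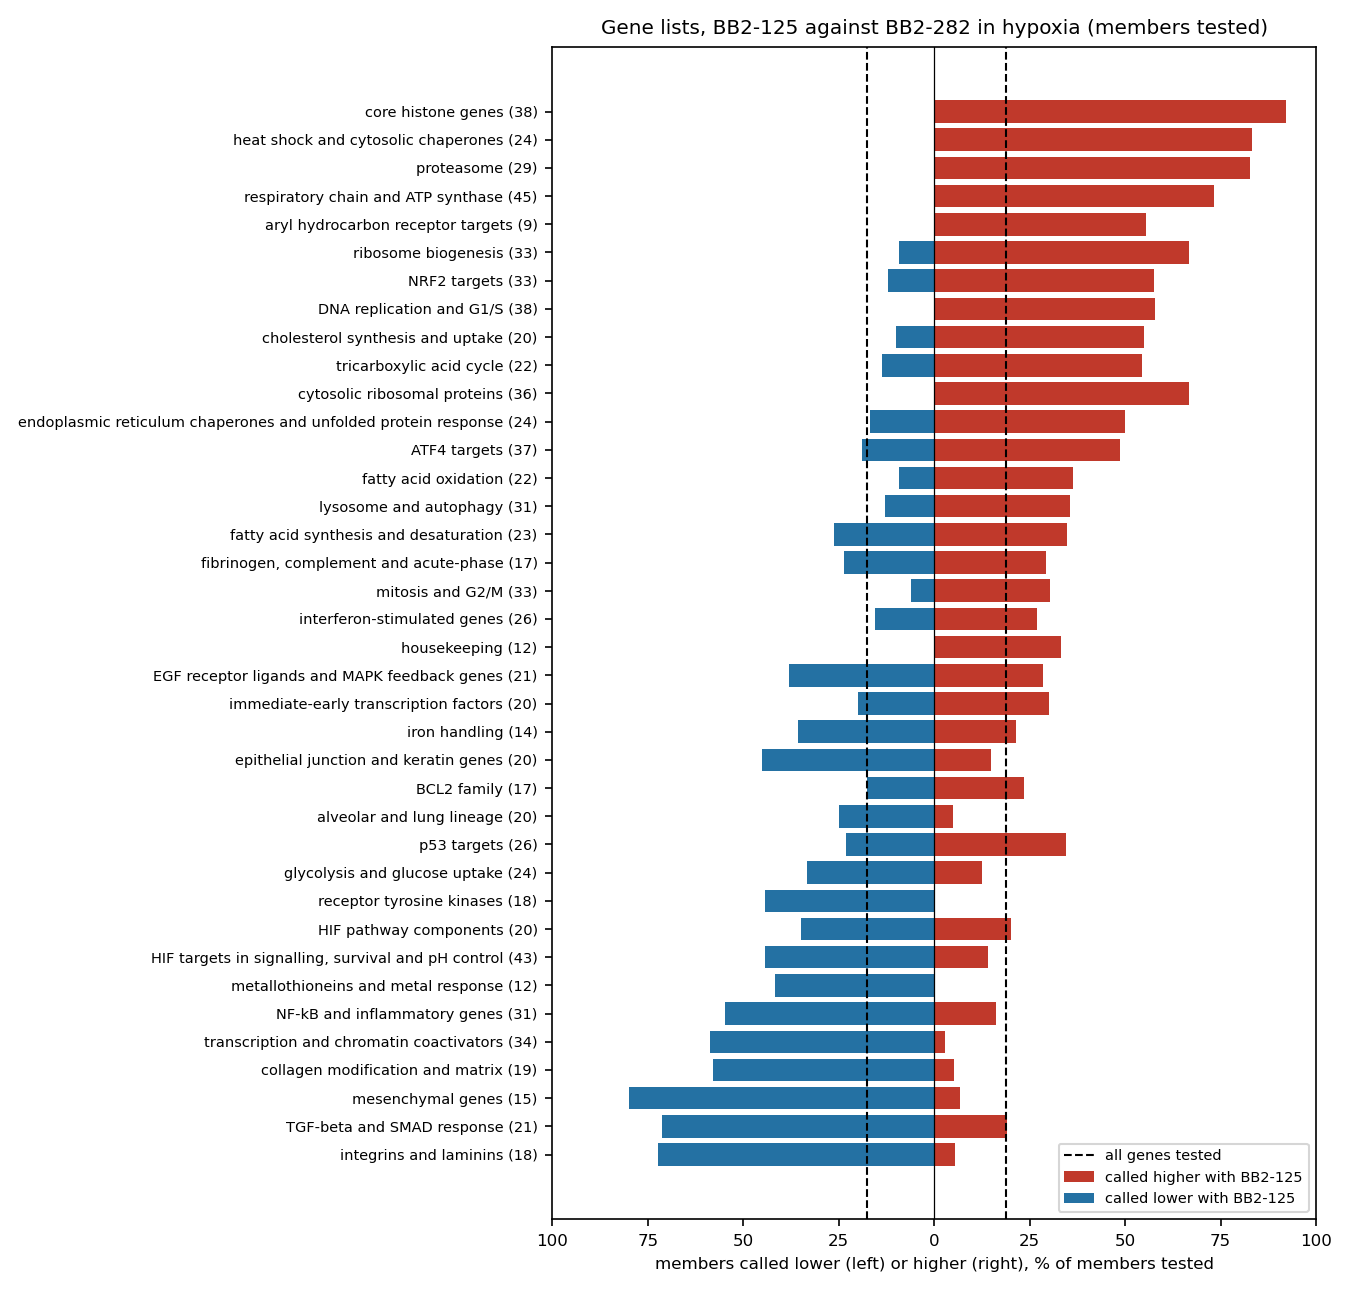
Percent of the tested members of each gene list other than the marker lists called higher (right) or lower (left) with BB2-125 against BB2-282; dashed lines mark the shares over all 16005 genes (18.7% and 17.6%), and lists are ordered by their median difference. Core histones (92.1% higher) stand at the top, and integrins and laminins (72.2% lower) at the bottom.

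No receptor tyrosine kinase gene was called higher: of 18 tested, 8 were lower (44.4%) and 0 higher, against 18.7% of all genes. MET, the hepatocyte growth factor receptor, lay at 8.71, 9.27 and 8.90 with BB2-125 and at 10.29, 10.38 and 10.56 with BB2-282, a difference of -1.45 ± 0.19 (adjusted p = 7.38e-06). FGFR1, a fibroblast growth factor receptor, differed by -1.43 ± 0.11 and the ephrin receptor gene EPHA2 by -0.88 ± 0.12. The ligands and feedback genes of the EGF receptor were 6 higher and 8 lower of 21 (28.6% and 38.1%, against 18.7% and 17.6% of all genes). EREG was among the higher and TGFA among the lower. SPRED1 and SPRED2, inhibitors of RAS signalling, differed by -1.64 ± 0.09 and -1.21 ± 0.14.

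Of 20 immediate-early transcription factors 6 were higher and 4 lower (30% and 20%, against 18.7% and 17.6% of all genes). FOS lay at 9.29, 9.43 and 9.07 with BB2-125 and at 7.58, 7.46 and 7.42 with BB2-282, a difference of 1.78 ± 0.16, while FOSL2, another FOS family member, differed by -1.11 ± 0.10. The orphan receptor genes NR4A1 and NR4A2 were higher by 1.22 ± 0.13 and 1.43 ± 0.17.

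Of 34 transcription and chromatin coactivators tested, 20 were lower with BB2-125 (58.8%), 1 was higher and 13 were not called, with a median of -0.43. KAT2B, an acetyltransferase, differed by -1.37 ± 0.16, KMT2C, a histone methyltransferase, by -1.54 ± 0.22 and AFF4, the scaffold of the super elongation complex, by -1.15 ± 0.13. Against the hypoxic vehicle 16 of the 34 were lower and 2 higher with BB2-125, and 0 were lower and 1 higher with BB2-282 (7.94% and 5.65% of all genes). The listed coactivator genes are long, with a median genomic span of 73.8 kb against 26.9 kb over all protein-coding genes tested.

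Genomic span went with the difference across all genes. Among protein-coding genes spanning less than 5 kb, 21.6% were higher with BB2-125 and 6.25% lower. In those of 160 kb or more, 12% were higher and 29.3% lower. Genes at least 2-fold higher had a median span of 16.9 kb and genes at least 2-fold lower one of 83.1 kb. Spearman's correlation of span with the difference was -0.18 over 14875 genes, and by level, in 3 equal groups of genes, it was -0.02 in the dimmest, -0.18 in the middle and -0.31 in the brightest. It is a description, since genes are not independent of each other and all share the same 6 arrays.

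The same quantity can be read on single arrays, as the mean level of genes spanning at least 80 kb minus that of genes under 10 kb, each gene centred on its mean over the 15 arrays. It was -0.20, -0.15 and -0.22 (log2) in the BB2-125 arrays, against 0.02, 0.10 and 0.17 in the BB2-282 arrays. The hypoxic vehicle arrays had 0.05, 0.16 and -0.04 and the normoxic vehicle arrays 0.15, 0.36 and 0.34. The BB2-125 arrays were thus below all vehicle arrays, while the BB2-282 arrays lay among the hypoxic vehicle arrays or just above them. The integrins and laminins (median span 79.2 kb) and the core histones (0.486 kb) lie at opposite ends of this scale, and the part of gene span in their differences was not tested. Within genes outside all lists the correlation was -0.17.

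**Figure D4:**
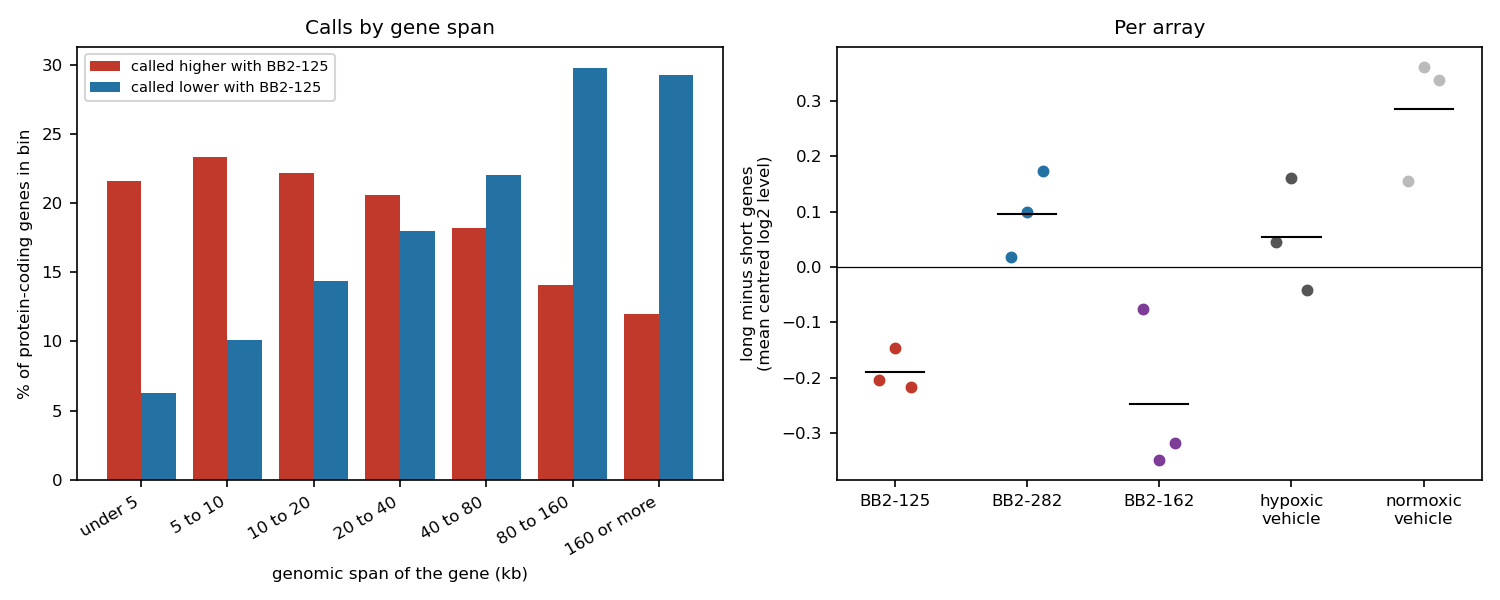
Left, the percent of protein-coding genes called higher or lower with BB2-125 in bins of genomic span (kb). Right, long (at least 80 kb) minus short (under 10 kb) genes on each array (mean centred log2 level, 1 point per array, bar at the group mean; BB2-162 is a further compound): the 3 BB2-125 arrays lie between -0.22 and -0.15, and the 3 BB2-282 arrays between 0.02 and 0.17.

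Core histone genes were higher almost throughout. These short, mostly intronless genes are switched on in S phase, and most of their transcripts end in a stem-loop instead of a poly(A) tail. Of 38 tested, 35 were higher (92.1%) and 0 lower, with a median difference of 0.97. H3C12 lay at 8.65, 8.01 and 8.36 with BB2-125 and at 5.83, 5.83 and 5.53 with BB2-282, a difference of 2.61 ± 0.15 (adjusted p = 5.99e-10). H2BC3 lay at 8.16, 7.57 and 7.73 with BB2-125 and at 5.83, 5.66 and 5.22 with BB2-282, a difference of 2.25 ± 0.19. H2AC4, H2BC14 and H3C11 were higher by 2.24 ± 0.15, 2.07 ± 0.14 and 1.86 ± 0.12. Set beside the vehicle arrays, 26 of the 38 were higher with BB2-125 and 1 with BB2-282, and 1 was lower with BB2-125 and 7 with BB2-282. Many histone genes are near-identical in sequence, so the share of each copy is uncertain.

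H2B promoters are shown for 2 of the genes that were higher, with capitals marking the octamer ATTTGCAT, the CCAAT box and the TATA box (TATAAA), each searched on both strands, in 300 bases from RefSeq (GRCh38.p14). H2BC3 lies at chr6:26043664-26043963 on the minus strand and H2BC14 at chr6:27814772-27815071 on the plus strand.
H2BC3 promoter: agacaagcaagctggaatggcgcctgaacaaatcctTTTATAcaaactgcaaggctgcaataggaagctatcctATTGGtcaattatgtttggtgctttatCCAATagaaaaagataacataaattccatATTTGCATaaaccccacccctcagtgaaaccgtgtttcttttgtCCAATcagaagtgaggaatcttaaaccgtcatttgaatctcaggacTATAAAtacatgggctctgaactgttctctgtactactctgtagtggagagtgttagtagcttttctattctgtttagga
H2BC14 promoter: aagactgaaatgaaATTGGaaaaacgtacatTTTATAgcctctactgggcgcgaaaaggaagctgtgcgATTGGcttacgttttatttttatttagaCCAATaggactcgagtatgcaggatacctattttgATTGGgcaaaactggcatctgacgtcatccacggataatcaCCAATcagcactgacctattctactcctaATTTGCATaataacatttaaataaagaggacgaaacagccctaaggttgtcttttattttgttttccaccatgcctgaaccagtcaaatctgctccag
Each held the octamer 1 time. The octamer was in 39.4% of the 33 core histone promoters in the table, against 1.8% of all promoters, the CCAAT box in 87.9% against 35.7%, and TATAAA in 66.7% against 12%. The marks are letter matches only.

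DNA replication genes were higher as well, 22 of 38 (57.9%) with 0 lower and a median of 0.48. PCNA, the sliding clamp of the replication fork, lay at 9.02, 8.87 and 9.0 with BB2-125 and at 7.81, 7.79 and 7.62 with BB2-282, a difference of 1.22 ± 0.11, made up of 0.21 with BB2-125 (adjusted p = 0.196) and -1.01 with BB2-282 (adjusted p = 1.41e-05) against the vehicle. RFC3, of the clamp loader, and GINS2, of the replicative helicase, were higher by 1.56 ± 0.15 and 1.24 ± 0.12, and were called against the vehicle with BB2-125 (1.50 and 1.05) and not with BB2-282 (-0.06 and -0.19). POLE2, a polymerase epsilon subunit gene that was not above the dim level with BB2-282, was at least 2.14-fold higher with BB2-125. Mitotic genes gave fewer calls, 10 higher and 2 lower of 33 (30.3% and 6.06%, against 18.7% and 17.6% of all genes), with a median of 0.10. CCNB2, a mitotic cyclin, and MAD2L1, of the spindle checkpoint, were higher by 1.06 ± 0.13 and 1.31 ± 0.17, and CENPF, a kinetochore gene, differed by -0.90 ± 0.14.

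Heat shock proteins fold newly made and damaged proteins, and the proteasome degrades those that cannot be saved. Of 24 heat shock and cytosolic chaperone genes, 20 were higher with BB2-125 (83.3%) and 0 lower, with a median of 0.87. HSPH1, a nucleotide exchange factor for HSP70, lay at 9.50, 9.93 and 9.54 in the BB2-125 arrays and at 7.35, 7.34 and 7.41 in the BB2-282 arrays, a difference of 2.29 ± 0.14 (adjusted p = 1.74e-09). HSPA6, an HSP70 that is nearly silent in unstressed cells, lay at 7.75, 7.72 and 7.84 with BB2-125 and at 5.89, 5.43 and 5.96 with BB2-282. Its difference was 2.01 ± 0.15 (adjusted p = 1.10e-08), and its mean was 5.91 in hypoxic and 5.79 in normoxic vehicle arrays. The small heat shock gene HSPB8 was higher by 1.35 ± 0.10 and the HSP40 gene DNAJA1 by 1.13 ± 0.09. Against the hypoxic vehicle, 15 of the 24 were higher and 0 lower with BB2-125, and 0 were higher and 7 lower with BB2-282.

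The promoters of HSPA6 (chr1:161524290-161524589, plus strand) and HSPB8 (chr12:119178681-119178980, plus strand; RefSeq, GRCh38.p14) are shown with the core of the heat shock element, GAANNTTC or TTCNNGAA, in capitals.
HSPA6 promoter: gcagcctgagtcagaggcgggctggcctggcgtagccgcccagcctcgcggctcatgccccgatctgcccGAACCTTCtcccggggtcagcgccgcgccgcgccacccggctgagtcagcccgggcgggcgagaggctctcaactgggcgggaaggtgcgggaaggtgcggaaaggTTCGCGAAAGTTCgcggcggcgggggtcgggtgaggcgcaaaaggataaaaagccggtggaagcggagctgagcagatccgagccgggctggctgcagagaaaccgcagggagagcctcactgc
HSPB8 promoter: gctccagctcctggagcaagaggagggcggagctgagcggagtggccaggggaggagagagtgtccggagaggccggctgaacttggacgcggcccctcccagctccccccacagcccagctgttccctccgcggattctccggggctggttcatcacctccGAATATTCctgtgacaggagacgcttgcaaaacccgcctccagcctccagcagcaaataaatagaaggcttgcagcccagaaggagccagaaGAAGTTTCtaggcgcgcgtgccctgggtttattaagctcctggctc
HSPA6 held 3 cores, of which those at -74 and -69 overlap, and HSPB8 held 2. Of the 23 listed genes with a listed promoter, 8 held a core (34.8%), against 13.7% of all promoters and 10.4% of those of tested genes. HSPH1 held 0 in this window, which says nothing of elements elsewhere.

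Proteasome genes were higher in 24 of 29 cases (82.8%), with 0 lower and a median of 0.67. PSMB3, of the core particle, lay at 11.51, 11.39 and 11.41 with BB2-125 and at 9.83, 9.75 and 9.85 with BB2-282, a difference of 1.63 ± 0.11 (adjusted p = 2.55e-09). PSMA4, of the same particle, was higher by 1.63 ± 0.15, PSMC4, an ATPase of the cap, by 1.41 ± 0.13 and POMP, an assembly factor, by 1.01 ± 0.09. Of the 29, 18 were higher than the vehicle with BB2-125 and 1 with BB2-282, whereas 0 were lower with BB2-125 and 9 with BB2-282. Endoplasmic reticulum chaperones and unfolded protein response genes were higher in 12 and lower in 4 of 24 (50% and 16.7%, against 18.7% and 17.6% of all genes). ATF6, a sensor of misfolded protein, was higher by 1.23 ± 0.14, and the chaperone genes HSPA5 and DNAJB11 by 0.92 ± 0.14 and 0.95 ± 0.12.

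Mitochondrial genes separated the compounds from both sides of the vehicle. Of 45 genes of the respiratory chain and ATP synthase, 33 were higher with BB2-125 (73.3%) and 0 lower, with a median of 0.66. Relative to the hypoxic vehicle, 17 were higher and 0 lower with BB2-125, and 0 were higher and 21 lower with BB2-282. CYCS, cytochrome c, lay at 9.34, 9.26 and 9.31 with BB2-125 and at 7.15, 7.05 and 7.16 with BB2-282, a difference of 2.18 ± 0.10 (adjusted p = 6.47e-11). Its change against the vehicle was 0.93 with BB2-125 and -1.25 with BB2-282. NDUFA2 of complex I, COX5B of cytochrome c oxidase and ATP5MC1 of ATP synthase were higher by 1.75 ± 0.14, 1.73 ± 0.15 and 1.62 ± 0.12, each lying above the vehicle with BB2-125 and below it with BB2-282 (all called).

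In the tricarboxylic acid cycle 12 genes of 22 were higher (54.5%) and 3 lower (13.6%). Beside IDH1, the succinyl-CoA ligase gene SUCLG1 was higher by 1.28 ± 0.14 and the malate dehydrogenase gene MDH1 by 1.10 ± 0.13, and PC, pyruvate carboxylase, differed by -1.14 ± 0.13. Fatty acid oxidation genes were higher in 8 of 22 cases (36.4%) and lower in 2 (9.09%), against 18.7% and 17.6% of all genes. Among them were ETFA, an electron carrier, at 0.91 ± 0.11, and PPARA, a nuclear receptor for fatty acids, at -1.12 ± 0.12.

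Genes for making ribosomes followed. Of 33 ribosome biogenesis genes, 22 were higher (66.7%) and 3 lower (9.09%), with a median of 0.51. POLR1C, a subunit of RNA polymerases I and III, lay at 8.29, 8.28 and 8.37 with BB2-125 and at 7.07, 6.98 and 7.07 with BB2-282, a difference of 1.27 ± 0.08. NHP2, a protein of H/ACA small nucleolar particles, was higher by 1.37 ± 0.16, NOB1, a nuclease of small subunit maturation, by 0.85 ± 0.11 and POLR1B by 1.0 ± 0.13. Cytosolic ribosomal protein genes were higher in 24 of 36 cases (66.7%) with 0 lower, and their median was smaller, 0.35. Under quantile normalization 14 were called higher with a median of 0.19. RPS7 differed by 1.15 ± 0.12 (0.65 in its other probe set) and RPS13 by 0.82 ± 0.10. Against the vehicle 3 of the 36 were higher with BB2-125 and 0 with BB2-282, whereas 1 was lower with BB2-125 and 13 with BB2-282.

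NRF2, the master regulator of antioxidant genes, is constitutively active in A549, where its inhibitor KEAP1 is mutated. Of 33 NRF2 targets, 19 were higher with BB2-125 (57.6%) and 4 lower (12.1%), with a median of 0.49. AKR1B10, an aldo-keto reductase, lay at 11.07, 10.62 and 10.81 with BB2-125 and at 8.65, 8.70 and 8.56 with BB2-282, a difference of 2.20 ± 0.16 (adjusted p = 9.02e-09). NQO1, a quinone reductase, was higher by 1.49 ± 0.11, SLC7A11, the cystine transporter, by 1.49 ± 0.14 and GSR, glutathione reductase, by 1.28 ± 0.13. Hypoxia had lowered each of these, with changes of -3.70 for AKR1B10 and -5.11 for SLC7A11. HMOX1, haem oxygenase 1, went the other way, at 9.66, 9.37 and 9.56 with BB2-125 and 10.45, 10.30 and 10.31 with BB2-282, a difference of -0.82 ± 0.11, and against the vehicle it was 0.25 (adjusted p = 0.0955) with BB2-125 and 1.07 with BB2-282.

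In the list for the aryl hydrocarbon receptor, a sensor of foreign chemicals, 5 of 9 genes were higher (55.6%, against 18.7% of all genes) and 0 lower. That list includes the receptor gene AHR itself, NFE2L2, which encodes NRF2, and NQO1, which is also counted among the NRF2 targets. ALDH3A1, an aldehyde dehydrogenase, was higher by 1.15 ± 0.11, TIPARP, a feedback repressor of the receptor, by 0.79 ± 0.13 and the cytochrome P450 gene CYP1B1 by 0.77 ± 0.13. Of 20 genes of cholesterol synthesis and uptake, 11 were higher (55.0%) and 2 lower (10.0%). DHCR7 and EBP, of the late steps, were higher by 1.15 ± 0.12 and 1.32 ± 0.12, and FDPS and ACAT2, of the early ones, by 1.19 ± 0.12 and 1.34 ± 0.12. Against the vehicle, 15 of the 20 were higher and 0 lower with BB2-125, and 10 were higher and 1 lower with BB2-282.

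ATF4 is the transcription factor of the integrated stress response. Of its 37 targets, 18 were higher (48.6%) and 7 lower (18.9%). DDIT3, a stress-induced factor also known as CHOP, lay at 11.30, 11.45 and 11.34 with BB2-125 and at 9.79, 9.78 and 9.72 with BB2-282, a difference of 1.60 ± 0.13. NUPR1, a stress-induced chromatin protein, was higher by 1.65 ± 0.12, and both compounds raised it over the vehicle, BB2-125 by 2.60 and BB2-282 by 0.95. The partners of the large neutral amino acid transporter parted, SLC3A2 being higher by 1.45 ± 0.12 and SLC7A5 lower, at -1.27 ± 0.11.

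Of 26 p53 targets 9 were higher and 6 lower (34.6% and 23.1%), among them GADD45A at 1.11 ± 0.13, TRIAP1 at 0.99 ± 0.11 and DDB2, a DNA damage sensor, at -1.02 ± 0.11. In the BCL2 family 4 of 17 were higher and 3 lower (23.5% and 17.6%), close to the 18.7% and 17.6% of all genes. PMAIP1, a promoter of cell death known as NOXA, lay at 8.56, 8.58 and 8.25 with BB2-125 and at 7.20, 7.20 and 7.18 with BB2-282, a difference of 1.27 ± 0.11, and MCL1, the survival protein that NOXA binds, lay at 9.71, 9.98 and 9.69 with BB2-125 and at 11.10, 11.18 and 11.21 with BB2-282, a difference of -1.37 ± 0.13. Neither pair of groups overlapped.

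In the list of NF-kB and inflammatory genes, which includes genes of the NF-kB subunits such as RELA, 17 of 31 were lower (54.8%) and 5 higher (16.1%). The median was -0.29. ICAM1, an adhesion molecule for leukocytes, lay at 6.97, 7.14 and 6.98 with BB2-125 and at 8.77, 8.90 and 8.91 with BB2-282, a difference of -1.83 ± 0.10 (adjusted p = 5.33e-10). Against the vehicle it was -0.04 with BB2-125 (adjusted p = 0.823) and 1.79 with BB2-282 (adjusted p = 5.20e-09). The chemokine gene CCL2 and TNFAIP2 showed the same pattern of values, -0.14 and -0.24 with BB2-125 beside 1.21 and 0.96 with BB2-282. CXCL2, another chemokine, was higher by 1.37 ± 0.14. Over the list, 8 genes were higher and 7 lower than the vehicle with BB2-125, and 12 were higher and 2 lower with BB2-282.

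For the remaining lists, counts read against 18.7% higher and 17.6% lower over all genes. Of 12 metallothioneins and metal response genes 5 were lower and 0 higher, MT1X, a metal-binding metallothionein, at -0.98 ± 0.13, though metallothionein genes are near-identical copies. Of 14 iron genes, 3 were higher and 5 lower, with FTL (ferritin light chain) at 1.07 ± 0.11 and STEAP3, an endosomal iron reductase, at -1.57 ± 0.10. Of 31 lysosome and autophagy genes 11 were higher and 4 lower, with NEU1, a sialidase, at 1.23 ± 0.10 and ULK1, a kinase that starts autophagy, at -1.54 ± 0.12. Interferon-stimulated genes were higher in 7 and lower in 4 of 26, fatty acid synthesis genes in 8 and 6 of 23, and acute-phase genes in 5 and 4 of 17, where C3 of complement differed by -1.61 ± 0.15. Of 20 alveolar and lung lineage genes 1 was higher, 5 were lower and 14 were not called, with a median of -0.07. The largest falls among those named were ABCA3, a surfactant lipid transporter, at -1.28 ± 0.11 and LPCAT1, an enzyme of surfactant lipid synthesis, at -1.18 ± 0.09. Of the 4 alveolar type 2 markers (ABCA3, SFTPB, SFTPC and NKX2-1), 1 was called lower and 0 higher. Of 12 housekeeping genes 4 were higher and 0 lower, TFRC, the transferrin receptor, at 1.06 ± 0.15. Fibroblast, leukocyte and endothelial markers gave 1 higher and 1 lower among 23 tested.

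Small noncoding RNA genes carried the largest rise and the largest fall of the 16005 genes tested. Small nucleolar RNAs (snoRNAs) guide the modification of ribosomal RNA, the C/D box class methylation and the H/ACA box class pseudouridylation, and most are cut out of introns of host genes. The extraction kit named in the labels retains very short RNAs poorly and the probe sets can also pick up host transcripts or precursors, so these values are signals of the probe sets and not of mature small RNAs alone. Of 259 such genes tested, 27 were higher and 57 lower (10.4% and 22%, against 18.7% and 17.6% of all genes). SNORD75 lay at 10.29, 9.85 and 9.99 in the BB2-125 arrays and at 6.32, 6.42 and 6.11 in the BB2-282 arrays, a difference of 3.76 ± 0.16 (adjusted p = 3.80e-11). SNORD77 was not above the dim level with BB2-282 and was at least 4.86-fold higher with BB2-125, as was SNORA29, at least 3.44-fold. SNORD78 differed by 1.73 ± 0.25.

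SNORD75, SNORD77 and SNORD78 lie in introns of the noncoding gene GAS5 on chromosome 1. Of the 7 snoRNA genes tested there, looked up after these values were seen, 4 were higher, the further one being SNORD79 at 1.42 ± 0.19. SNORD74 was lower at -0.38 ± 0.14 (adjusted p = 0.0419), while SNORD44 and SNORD81 were not called, at 0.26 ± 0.29 and 0.23 ± 0.31. TCP1, whose own transcript was higher by 0.28, likewise holds SNORA29, which was higher, and SNORA20, at -1.17 ± 0.35. Neighbours in the same host thus differed in opposite directions.

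The largest falls were VTRNA1-1, SCARNA4, SNORA46 and SNORA65. VTRNA1-1, a vault RNA made by RNA polymerase III, lay at 7.92, 5.82 and 6.76 with BB2-125 and at 10.37, 10.88 and 10.19 with BB2-282, a difference of -3.65 ± 0.47 (adjusted p = 6.29e-06). It stood at 1.27 from the hypoxic vehicle with BB2-125 (adjusted p = 0.0522) and at 4.92 with BB2-282 (adjusted p = 2.88e-06). SCARNA4, a Cajal body RNA, lay at 6.34, 5.70 and 5.56 with BB2-125 and at 9.30, 9.32 and 9.47 with BB2-282, and its host KHDC4 was higher by 0.78. SNORA46 and SNORA65 differed by -3.46 ± 0.29 and -3.35 ± 0.33.

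By class, H/ACA box snoRNAs were higher in 2 and lower in 22 of 54 cases (3.7% and 40.7%, against 18.7% and 17.6% of all genes), with a median of -0.51. Against the hypoxic vehicle, 4 of the 54 were higher and 0 lower with BB2-125, and 19 were higher and 1 lower with BB2-282. Of 84 C/D box snoRNAs, 16 were higher and 14 lower (19% and 16.7%), shares close to those of all genes. The median H/ACA level was 8.75, 7.67 and 7.95 (log2) in the BB2-125 arrays, against 9.89, 9.82 and 9.09 in the BB2-282 arrays and 7.94, 7.62 and 7.91 in the hypoxic vehicle arrays. BB2-125 replicate 1 was thus nearest to BB2-282. Its median was also the highest of the BB2-125 arrays for C/D box (9.55, against 8.58 and 8.94), spliceosomal (9.03, against 7.63 and 7.63), Cajal body (10.14, against 9.06 and 9.65) and vault RNAs (7.92, against 5.86 and 6.76). For microRNA precursors it was the lowest (5.84, against 6.04 and 5.99). Spread among replicates was thus uneven across classes, and the shares called do not allow for it. Without BB2-125 replicate 1, 27 H/ACA genes were lower, and over each of the other replicates left out in turn 19 to 21.

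**Figure D5:**
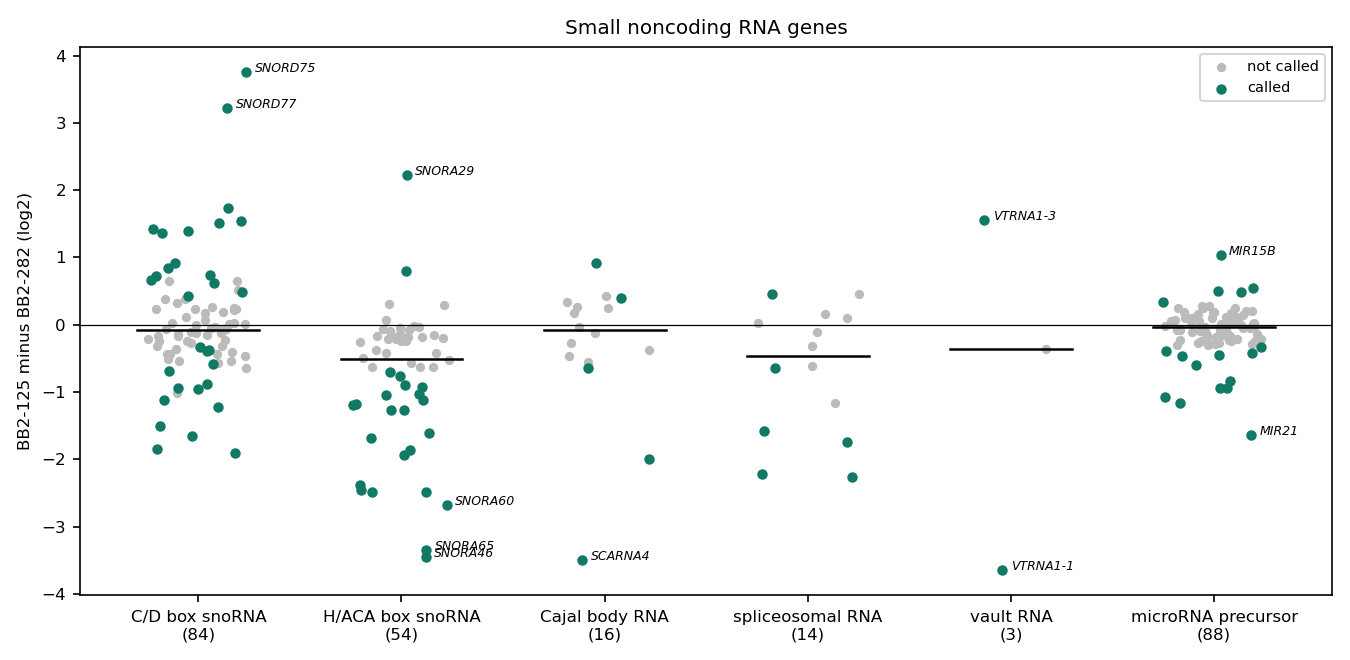
Log2 difference of BB2-125 minus BB2-282 (vertical axis) for 259 small noncoding RNA genes by class (number tested in brackets), 1 point per gene, green where called, with a bar at the class median. The H/ACA box class has a median of -0.51 and SNORD75 stands at 3.76; SNORD77, SNORA29 and MIR15B are drawn at their measured differences although they were not above the dim level with BB2-282.

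Of 88 microRNA precursor genes, 5 were higher and 12 lower (5.68% and 13.6%), smaller shares than the 18.7% and 17.6% of all genes. Those described here were chosen after their values were seen, for the size of the difference or a shared transcript or seed. Their main mature sequences follow (RefSeq, GRCh38.p14), with the seed, bases 2 to 8, in capitals.
hsa-miR-21-5p: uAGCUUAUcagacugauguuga
hsa-miR-23a-3p: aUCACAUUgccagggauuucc
hsa-miR-27a-3p: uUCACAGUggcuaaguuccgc
hsa-miR-24-3p: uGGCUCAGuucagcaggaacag
hsa-miR-31-5p: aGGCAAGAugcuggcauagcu
hsa-miR-15a-5p: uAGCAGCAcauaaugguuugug
hsa-miR-15b-5p: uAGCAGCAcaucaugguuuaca
MIR21, the precursor of a microRNA abundant in many carcinomas, lay at 8.51, 8.45 and 8.66 with BB2-125 and at 10.09, 10.21 and 10.22 with BB2-282, a difference of -1.63 ± 0.12 (adjusted p = 5.52e-09). VMP1, which overlaps MIR21, was higher by 0.72, so the precursor and the gene around it differed in opposite directions.

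MIR23A, MIR27A and MIR24-2 lie in 1 transcript, MIR23AHG, and have 3 different seeds. All 3 were lower, at -0.84 ± 0.16, -1.08 ± 0.17 and -1.17 ± 0.27. MIR31 differed by -0.95 ± 0.20, beside -1.74 for its host MIR31HG. MIR15A and MIR15B have the same seed, AGCAGCA, and come from different chromosomes. MIR15A differed by -0.46 ± 0.15 (adjusted p = 0.0231), and MIR15B, which was not above the dim level with BB2-282, was at least 1.94-fold higher with BB2-125 (adjusted p = 0.000149).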

How the data were processed

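The deposited intensities are linear array values per probe set, made by the authors with RMA per the submitters' processing notes. RMA subtracts background, quantile-normalizes arrays and summarises probes; its software and version are not given in the sources used here. Of 28869 probe sets, the 19310 with 1 gene symbol in the platform table were used, with symbols updated by Entrez ID (19279 found, 31 kept). Of several probe sets for a gene (685 genes) the brightest was taken. Genes not above an array's 25th percentile on at least 3 arrays (2372) were left out.

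Log2 values of all 15 arrays (5 groups of 3) were fitted with limma 3.58.1 in R 4.3.3, so that all groups share the estimate of spread, with Benjamini-Hochberg adjustment over 16005 genes and calls at an adjusted p under 0.05. The procedure was tested on simulated data. Same-numbered arrays of the 2 groups had deviations correlating at 0.01, -0.13 and -0.06, so the numbers were not taken to pair cultures.

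Named genes are the 12 largest rises and falls among called genes whose arrays do not overlap, leaving out small noncoding RNA genes, the 4 largest each way among those, up to 4 of lowest p in each list and 13 genes followed throughout. The genes followed, the 41 lists (1049 genes, 931 tested) and the comparison itself were chosen with earlier results of these data known. Alternatives were the 2 groups alone, a replicate block, quantile normalization, median centring, other dim filters, an intensity trend, the mean of probe sets, each BB2-125 and BB2-282 array left out in turn, and BB2-162 replicate 1 left out. A bound for a gene that was not above the dim level in a group sets the mean of the bright group against the mean dim level of the arrays of the dim group. Whether a gene was above the dim level was judged on group means, so a single array could lie above it. MIR15B in BB2-282 replicate 3 did, at 4.91 against 4.70.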

Additional observations from a re-analysis of the deposited data

How the results depend on the processing

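The number of genes called lay between 4971 and 6656 over all alternatives, within 1.5 times the 5813 reported. Among the named genes no called difference changed sign, and the signs of other genes were not compared. With the replicate block 5727 genes were called, and the block changed no named call. Leaving out 1 of the 6 BB2-125 and BB2-282 arrays gave 4971 to 5390 calls, 2580 to 2763 higher, 2391 to 2627 lower and 991 to 1132 at least 2-fold. Without BB2-162 replicate 1, 6349 were called; no vehicle array was left out. Quantile normalization moved list medians to -0.34 for glycolysis, -0.010 for EGF receptor ligands, -0.15 for p53 targets, -0.13 for the BCL2 family, 0.22 for endoplasmic reticulum chaperones, 0.15 for ATF4 targets, 0.37 for NRF2 targets, 0.21 for the tricarboxylic acid cycle, 0.19 for cytosolic ribosomal proteins, 0.55 for the proteasome, 0.061 for lysosome genes, -0.42 for NF-kB genes and -0.0018 for housekeeping genes. All of these medians lay below those of the main fit, whereas the median over all genes went only from 0.00495 to -0.0078. Under this setting, lists with rises thus had smaller medians and lists with falls larger ones. HIF targets called higher numbered 3 under quantile normalization. With no dim filter the fibroblast marker median was -0.024. A dim filter at the array median gave -0.35 for receptor tyrosine kinases, -0.014 for EGF receptor ligands, -1.09 for integrins and laminins, 0.33 for ATF4 targets, -0.032 for interferon genes and -0.21 for alveolar genes. Leaving out each of the 6 arrays in turn, medians ranged from -0.28 to -0.19 for receptor tyrosine kinases, 0.021 to 0.11 for EGF receptor ligands, 0.41 to 0.49 for DNA replication, 0.76 to 0.91 for heat shock genes, 0.20 to 0.29 for ATF4 targets, 0.44 to 0.76 for aryl hydrocarbon receptor targets, 0.10 to 0.19 for fatty acid synthesis and -0.34 to -0.22 for metallothioneins. Fatty acid synthesis genes called higher numbered 5 without BB2-125 replicate 2 or BB2-282 replicate 1 or 2, and interferon genes called higher numbered 4 without BB2-125 replicate 1. The call of PPIA was lost without BB2-125 replicate 3 or BB2-282 replicate 1 or 2 (adjusted p 0.0518 to 0.0696). CD79A was called in the fit of the 2 groups alone (adjusted p = 0.0428) and CD3E without BB2-125 replicate 1 (adjusted p = 0.0105). The cause of these shifts was not tested. For genes near the dim level the signal limits what can be seen, and a change there is compressed.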

Other observations

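Several gene families outside the lists differed between the compounds. They were picked after the values were seen and are given as a description, with counts read against 18.7% higher and 17.6% lower over all genes. Other families looked at were less one-sided or smaller in size: of 27 HOX genes 3 were higher and 3 lower, and of 17 S100 genes 3 were higher and 2 lower. Of 29 myosin heavy chains 2 were higher and 11 lower, with a median of -0.12. Mitochondrial ribosomal proteins, which make the mitochondrion's own ribosomes, were higher with BB2-125 in 59 of 73 cases and lower in 0, with a median difference of 0.67. MRPS15 was higher by 1.59 ± 0.11 (adjusted p = 6.43e-09), at 0.87 with BB2-125 and -0.72 with BB2-282 against the hypoxic vehicle. LSM and SNRP genes, only some of which encode core proteins of splicing particles, were higher in 19 of 24 cases and lower in 1, LSM3 by 1.96 ± 0.17 (adjusted p = 7.81e-08).

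Tensins link integrins to the actin skeleton, and all 4 tested were lower with BB2-125. TNS4 differed by -2.15 ± 0.14 (adjusted p = 1.88e-09) and TNS3 by -1.03 ± 0.11. The Notch receptor gene NOTCH2 differed by -2.22 ± 0.17 and MAML2, a Notch coactivator, by -2.37 ± 0.14, whereas HES1, a target of Notch, was higher by 1.25 ± 0.14 (adjusted p = 1.08e-06); of 15 Notch pathway genes 2 were higher and 7 lower. Of 10 DOCK genes, which encode activators of small GTPases, 6 were lower and 1 higher, DOCK5 by -2.11 ± 0.16. TM4SF4, of the same membrane protein family as TM4SF20, was higher by 2.21 ± 0.15 (adjusted p = 4.22e-09), and 4 of the 5 members tested were higher.

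Of 4174 probe sets with no gene listed in the platform table, 544 were higher and 286 lower (19.9% called), with differences up to 3.84. Of 1517 probe sets with several gene symbols, 310 were higher and 234 lower (35.9% called), with differences up to 4.25. Both kinds are unnamed here.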
